A study of Mus musculus with 9 samples.

Results

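The 10 genes described here are secreted Wnt ligands: Wnt7a, Wnt7b, Wnt4, Wnt5a, Wnt6, Wnt9a, Wnt10a, Wnt11, Wnt2 and Wnt2b. They were picked by name from the 19 Wnt genes among the 54453 genes of a table of estimated counts, with the difference between the genotypes already known for some of them, Wnt7a above all. Values of that difference are therefore given as a description. RNA came from 9 whole frozen pancreatic tumors of the KPC mouse, which models pancreatic ductal adenocarcinoma and in which a Cre recombinase active in the pancreas switches on tumor-driving alleles. The study set 4 tumors labelled Scrib WT, with the genotype written KPF/+C (tumors WT 2, WT 3, WT 6 and WT 9), against 5 labelled Scrib null, written KPF/+CSF/F (null 7, null 14, null 15, null 18 and null 23). Both groups share the KPF/+C part of the genotype, and the labels give neither ages nor the meaning of each allele. Scrib encodes a scaffold of epithelial polarity, and the labels name neither the Cre driver nor the cells in which Scrib was lost. Nothing in them states that the tumors are from different mice, and p-values cover the spread among tumors alone.

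Wnt ligands are lipid-modified glycoproteins that mostly act on nearby cells. Porcn, an acyltransferase, adds the lipid, and Wls carries the ligand to the cell surface, where it binds a Frizzled receptor together with Lrp5 or Lrp6 and stabilises beta-catenin, or binds Ror and Ryk receptors and acts without it. Wnt7a and Wnt7b are usually made by epithelia, and Wnt2, Wnt5a and Wnt11 are often made by mesenchyme. In pancreatic cancer, Wnt ligands made by tumor cells or by the stroma can sustain growth of the tumor cells.

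Depth ran from 10145830 to 27596832 estimated counts per tumor. Epithelial markers were high in every tumor, at 7.69 to 8.68 mean log2 CPM (counts scaled to library size) over 15 genes, and 15 of 15 were detected and tested. Tumors WT 3 and null 7 stood apart from the rest in an earlier analysis of these data, and results that rest on them are given with and without them. Null 7 had the lowest fibroblast markers: its list of 15 genes lay at 3.02 log2 CPM, while the others labelled null had 5.60 to 6.48 and the tumors labelled WT 5.86 to 7.28. Scrib mRNA did not separate the groups, at 70.4 ± 21.4 CPM (SD, n = 4) and 60.2 ± 24.5 CPM (SD, n = 5; exact two-sided permutation p = 0.524), so directions are between tumors as labelled. In bulk tissue, fewer cells of a type and less RNA per cell cannot be told apart.

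Wnt7b and Wnt7a made up most of the Wnt ligand RNA of these tumors, with the exception of WT 6. To compare genes, the estimated counts were divided by the length of each gene's exons and scaled to a common total per tumor (TPM). On that scale the mean level over the 9 tumors was 137 ± 85.2 TPM for Wnt7b and 118 ± 61.3 TPM for Wnt7a (SD, n = 9). Next came Wnt10a at 23.6 ± 19.9 TPM, Wnt4 at 23.5 ± 18.7 TPM and Wnt2 at 17.6 ± 13.5 TPM. Wnt11 (10.3 ± 5.98 TPM), Wnt5a (8.14 ± 6.07 TPM) and Wnt9a (6.83 ± 6.91 TPM) were lower, and Wnt6 (1.16 ± 2.08 TPM) and Wnt2b (0.505 ± 0.286 TPM) were near the bottom. The step from Wnt7a to Wnt10a held in all 9 tumors. Other neighbours down to Wnt9a overlapped in their spread: Wnt7b exceeded Wnt7a in 5 tumors, Wnt10a exceeded Wnt4 in 4, Wnt4 exceeded Wnt2 and Wnt2 exceeded Wnt11 in 7 each, Wnt11 exceeded Wnt5a in 8, and Wnt5a exceeded Wnt9a in 6. Of the 9 Wnt genes outside the set, Wnt5b (4.00 ± 2.24 TPM), Wnt10b (1.93 ± 2.59 TPM) and Wnt16 (1.26 ± 1.43 TPM) passed the filter on low counts, and Wnt3a, Wnt8a and Wnt8b had no count in any tumor. The 10 ligands held 96.0% to 99.2% of the summed Wnt TPM of each tumor.

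The composition of this pool differed from tumor to tumor. Wnt7a and Wnt7b together made up 60.7%, 76.8%, 46.8% and 55.0% of the Wnt TPM in tumors WT 2, WT 3, WT 6 and WT 9, and 73.8%, 86.1%, 72.4%, 79.9% and 76.6% in tumors null 7, null 14, null 15, null 18 and null 23. The share of WT 3 lay inside the null range, so the groups overlapped in this share. In TPM the summed level of both genes did not overlap, at 65.0 to 207 TPM in the tumors labelled WT and 220 to 420 TPM in those labelled null, whereas the other 17 Wnt genes together had 94.2 ± 53.7 TPM (SD, n = 4) and 103 ± 38.8 TPM (SD, n = 5). In CPM, 6.91% of all genes tested had groups that do not overlap. TPM did not use the library scaling of the CPM values. Wnt7a had means of 63 (WT) and 163 TPM (null), against 84.5 and 184 CPM. Wnt7a and Wnt7b were the first and second ligand, in either order, in 8 of 9 tumors. In the exception, WT 6, Wnt2 was second with 24.9% of the pool, against 0.0889% to 10.3% elsewhere. Null 7 stood out for Wnt10a, which held 22.2% of its pool.

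**Figure D1:**
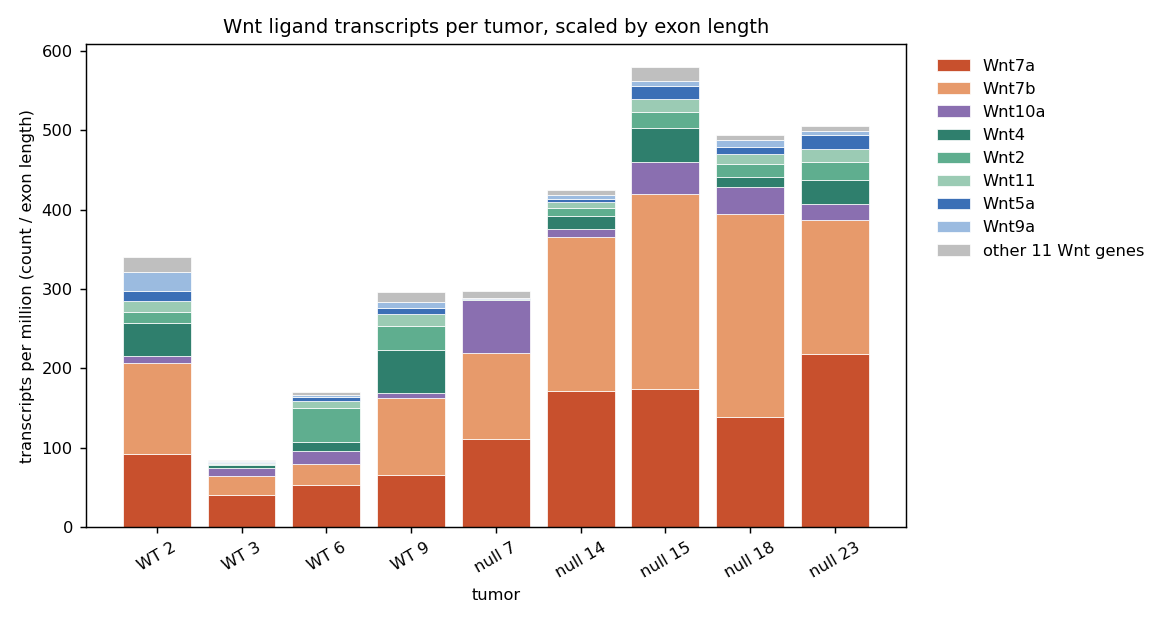
Stacked bars of Wnt ligand level per tumor, in TPM from estimated counts and exon length, with one bar per tumor and one colour per ligand. Wnt7a and Wnt7b sum to 65.0 to 207 TPM in the 4 tumors labelled WT and to 220 to 420 TPM in the 5 labelled null, and Wnt10a holds 22.2% of the pool of null 7.

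Wnt7a (ENSMUSG00000030093; chromosome 6, 91363981 to 91411363, minus strand, GRCm38), a ligand of limb, uterine and brain vessel development, was the steadiest of the 10. It had 104, 80.6, 78.8 and 74.7 CPM in tumors WT 2, WT 3, WT 6 and WT 9, and 148, 202, 197, 153 and 219 CPM in tumors null 7, null 14, null 15, null 18 and null 23. The groups did not overlap: the lowest tumor labelled null lay above the highest labelled WT, and the highest of the 9 was 2.93 times the lowest. Group means were 84.5 ± 13.2 CPM (SD, n = 4) and 184 ± 31.5 CPM (SD, n = 5), a log2 fold change, null over WT, of 1.12 (SE 0.21). Leaving out each tumor in turn gave 1.04 to 1.24, and leaving out both WT 3 and null 7 gave 1.20.

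Wnt7b (ENSMUSG00000022382; chromosome 15, 85535437 to 85582473, minus strand), the closest relative of Wnt7a and a ligand of lung, kidney and vessel development, varied more. Its values were 197, 75.4, 58.2 and 173 CPM in the tumors labelled WT and 226, 353, 430, 433 and 261 CPM in those labelled null, in the order above. WT 2 and WT 9 were high among the tumors labelled WT, and again the groups did not overlap, although WT 2 lay close to null 7. Means were 126 ± 69.4 CPM (SD, n = 4) and 341 ± 95.4 CPM (SD, n = 5), a log2 fold change of 1.43 (SE 0.40), which ran from 1.20 to 1.74 with each tumor left out. Wnt7b lies 9.47 Mb from Scrib on the same chromosome. The antisense gene AU022754 overlaps it, with at most 119 estimated counts in a tumor, against 879 to 12590 for Wnt7b, and whether strand was used in counting was not given in the sources used here.

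Wnt10a (ENSMUSG00000026167; chromosome 1, 74791516 to 74804179, plus strand), a ligand of tooth, hair and skin appendage growth, had 8.10, 14.8, 18.3 and 5.72 CPM in the tumors labelled WT and 68.8, 8.98, 35.7, 29.5 and 15.9 CPM in those labelled null. Null 7 was the highest and null 14 lay inside the WT range, so the groups overlapped. Its log2 fold change of 1.43 (SE 0.57) fell to 0.94 without null 7. Wnt6 (ENSMUSG00000033227; chromosome 1, 74771892 to 74785322), which ends 6.19 kb before Wnt10a starts on the same strand, did not follow it. Wnt6 had 5.15 CPM in WT 2 and 0.0744 to 1.16 CPM in the other 8 tumors, and was the 1 ligand of the 10 that did not pass the filter.

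Wnt4 (ENSMUSG00000036856; chromosome 4, 137277489 to 137299726, plus strand), which directs kidney tubule and female reproductive tract development, had 61.0, 8.92, 24.2 and 80.4 CPM in the tumors labelled WT and 1.26, 26.6, 63.3, 16.9 and 39.7 CPM in those labelled null. The tumors spread 63.8-fold from null 7 to WT 9 and the groups overlapped widely, with a log2 fold change of -0.56 (SE 0.84). Wnt2 (ENSMUSG00000010797; chromosome 6, 17988940 to 18030585, minus strand), a mesenchymal ligand of lung development, had 11.4, 2.14, 44.1 and 25.0 CPM in the tumors labelled WT and 0.252, 7.67, 16.2, 13.0 and 16.5 CPM in those labelled null. WT 6 was the highest and null 7, with 5 counts, the lowest, and the log2 fold change of -0.95 (SE 0.92) was -0.26 without WT 6. Wnt2b (ENSMUSG00000027840; chromosome 3, 104945272 to 104961921), which acts with Wnt2 in lung specification, never exceeded 1.34 CPM, and its log2 fold change was -0.09 (SE 0.64).

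Wnt5a (ENSMUSG00000021994; chromosome 14, 28504750 to 28527448, plus strand), the best known ligand of Ror2 and of planar cell polarity, had 33.5, 4.12, 18.6 and 22.6 CPM in the tumors labelled WT and 1.66, 13.0, 43.6, 24.7 and 43.4 CPM in those labelled null. Wnt11 (ENSMUSG00000015957; chromosome 7, 98835112 to 98855195, plus strand), which also acts largely without beta-catenin, had 20.4, 4.38, 16.3 and 22.1 CPM in the tumors labelled WT and 1.21, 12.0, 24.8, 18.6 and 20.4 CPM in those labelled null. For both, null 7 was the lowest and WT 3 the second lowest of all 9 tumors. Their log2 fold changes were 0.36 (SE 0.77) and -0.035 (SE 0.68). Wnt9a (ENSMUSG00000000126; chromosome 11, 59306928 to 59333552, plus strand), a ligand of joint formation, had 27.7, 1.89, 4.65 and 8.84 CPM in the tumors labelled WT and 0.302, 6.10, 8.82, 10.3 and 5.46 CPM in those labelled null. WT 2 was its highest value, and its log2 fold change of -0.79 (SE 0.86) turned to 0.27 without WT 2.

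**Figure D2:**
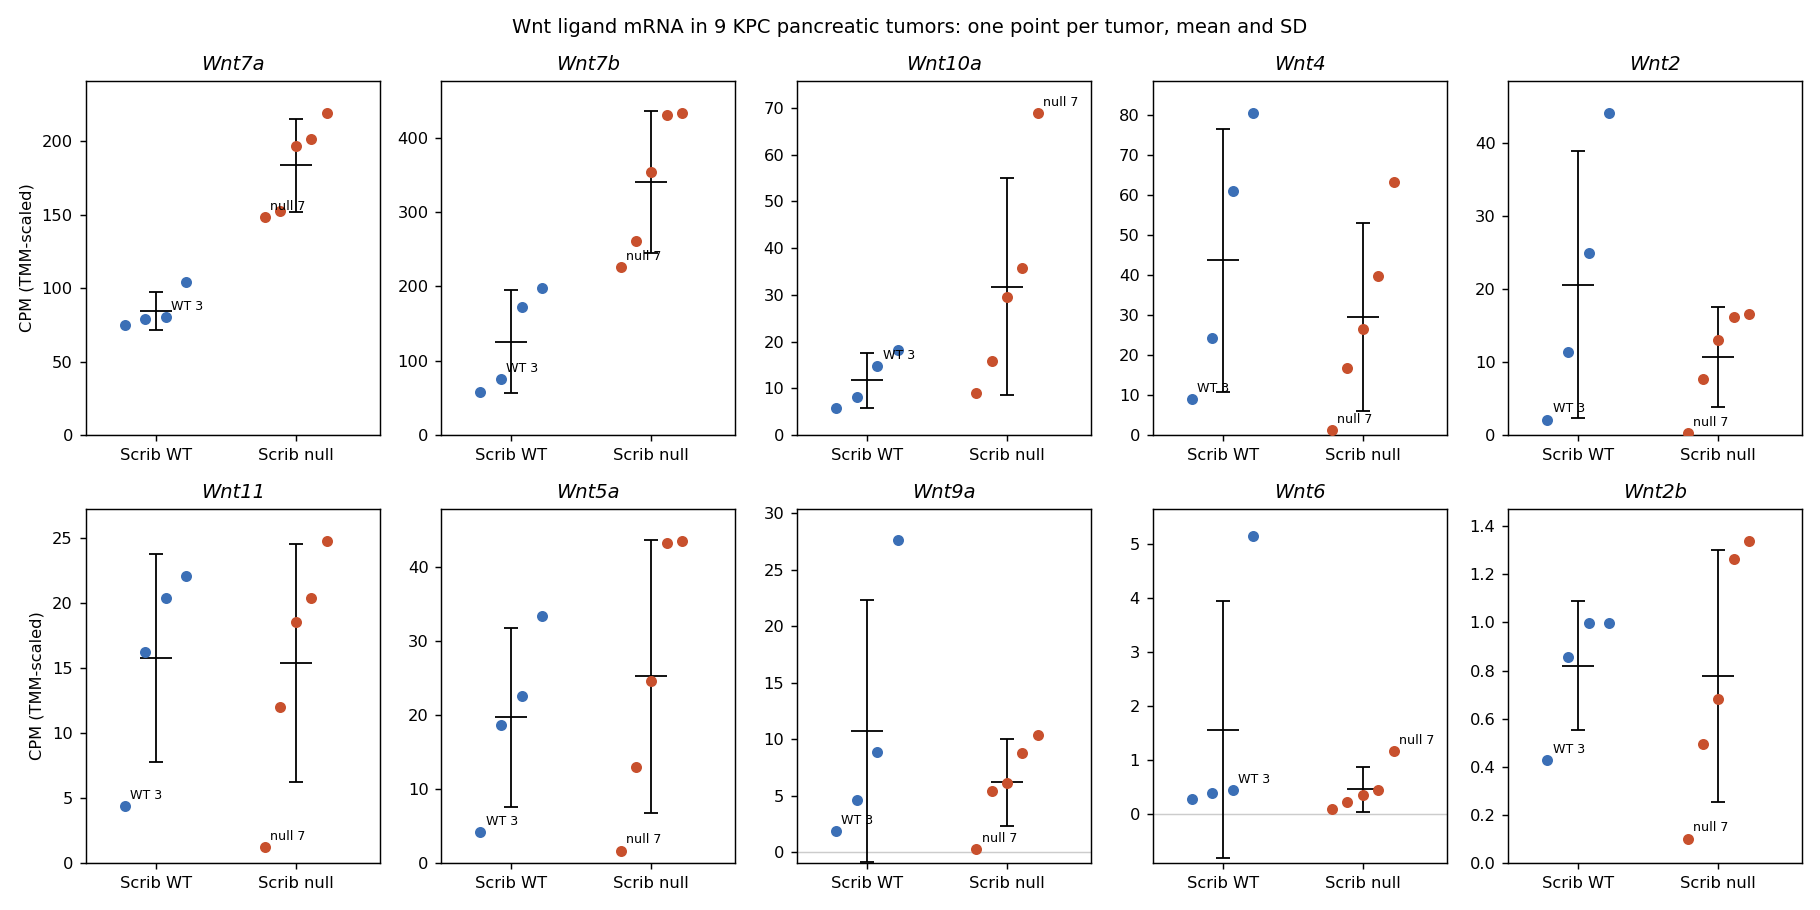
Level of each of the 10 ligands in CPM (linear axis from 0, or below where an SD reaches under 0), with 1 point per tumor, the group mean as a bar and the SD as whiskers (4 tumors labelled Scrib WT in blue, 5 labelled Scrib null in orange). The groups are apart for Wnt7a and Wnt7b, and null 7 and WT 3 sit at the bottom for Wnt4, Wnt2, Wnt11, Wnt5a, Wnt9a and Wnt2b.

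Counted by groups that do not overlap, 2 of the 9 ligands tested stood apart, Wnt7a and Wnt7b, both higher in the tumors labelled null, where 6.91% of all 16169 genes tested had groups that do not overlap (3.43% higher and 3.48% lower). No ligand passed edgeR's quasi-likelihood test at a Benjamini-Hochberg adjusted p under 0.05, which called 0.0124% of all genes. DESeq2 called 2 ligands, Wnt7a and Wnt7b, against 3.58% of all genes (1.24% higher and 2.34% lower). A log2 fold change of at least 1 was seen for 3 ligands, Wnt7a, Wnt7b and Wnt10a, and for 3.46% of all genes. Of the 9, 4 had a positive and 5 a negative log2 fold change, with a median of -0.035, and over all genes the median was also -0.035 and 47.8% were above 0. Nothing is read from these counts, because results of this contrast were known when the ligands were chosen. Marker levels of other cells were compared between the same groups. The fibroblast list lay at 6.63 ± 0.65 (WT) and 5.28 ± 1.32 log2 CPM (null; two-sided exact permutation p = 0.0556) and the macrophage and monocyte list at 6.33 ± 0.50 and 5.47 ± 0.43 (exact p = 0.0159), and all 15 genes of either list had a negative log2 fold change. Summed CPM of the fibroblast list ran from 2456 to 9861 in the tumors labelled WT and from 402 to 4904 in those labelled null, that of the macrophage list from 2228 to 4167 and from 1091 to 2509, and no marker of either was at 0 in every tumor. Epithelium had 7.99 ± 0.20 and 8.30 ± 0.25 (exact p = 0.0714; SD, n = 4 and 5 for each). Of these the macrophage list alone had a p under 0.05. Lists of endothelium, T cells and B cells were also lower in the tumors labelled null (exact permutation p = 0.0476, 0.0397 and 0.0317). Those of pericytes, mesothelium, neutrophils, acinar cells, islets and Schwann cells had a p over 0.05 (exact permutation p = 0.119, 0.508, 0.222, 0.865, 0.548 and 0.968). The p-values of these 12 lists were not adjusted for the number of lists. The part of these cells in the ligand values was not tested. The mean level of the fibroblast, macrophage, endothelium and pericyte lists was used as a covariate (non-epithelial level). The log2 fold change with it was 1.31 for Wnt7a, 2.02 for Wnt7b and 2.03 for Wnt5a (edgeR adjusted p = 0.282 for each). For Wnt10a it was 0.345, and the values of Wnt4, Wnt2, Wnt9a, Wnt11 and Wnt2b turned positive (0.45 to 1.68). This level did not overlap between the groups, at 5.19 to 6.04 log2 CPM (WT) and 2.94 to 5.05 (null). A fit with it compares the groups at a level they do not share, here and wherever this covariate is used below.

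A set of 6 ligands, Wnt4, Wnt5a, Wnt9a, Wnt11, Wnt2 and Wnt2b, varied together over the tumors. The set was named after the values of all pairs were seen. Of 45 ligand pairs, 14 passed an exact two-sided permutation test of Pearson's r in log2 CPM after Benjamini-Hochberg adjustment, and 13 of these were among the 15 pairs of this set, with r from 0.80 to 0.97 over the 15. Wnt5a and Wnt11 were the closest pair, with r = 0.97 (exact permutation p = 0.000124, adjusted p = 0.00558) and Spearman's rho = 0.90 (exact permutation p = 0.00203, adjusted p = 0.0456). Wnt4 and Wnt11 had r = 0.95 (exact permutation p = 0.000788, adjusted p = 0.0177) and rho = 0.90 (exact permutation p = 0.00203, adjusted p = 0.0456). By rank these 2 pairs alone passed. Without the 2 tumors farthest from the median, r was 0.85 for Wnt5a and Wnt11 (WT 3 and null 7 left out) and 0.83 for Wnt4 and Wnt11 (WT 9 and null 7 left out).

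Much of the rest of this pattern rested on the 2 tumors poor in these ligands. Without WT 3 and null 7, r over the 15 pairs ran from -0.40 to 0.85 and no pair of the 45 passed. Wnt11 and Wnt2, for example, had r = 0.94 in all tumors (exact permutation p = 0.00381, adjusted p = 0.0245; rho = 0.68, exact permutation p = 0.0503, adjusted p = 0.333) and r = 0.29 without these 2. With each gene centred on the mean of its group, r over the 15 pairs ran from 0.78 to 0.98. Centring leaves WT 3 and null 7 the lowest of their groups, so this range does not show the pattern without them. Wnt7a and Wnt7b were the other pair that passed, but both separate the groups, so a pooled r is not given. Centred on group means r was 0.27 (approximate permutation adjusted p = 0.535). The neighbours Wnt6 and Wnt10a had r = -0.11 (exact permutation p = 0.788, adjusted p = 0.938; rho = 0.02, exact permutation p = 0.982). Their r changed sign with the tumors left out, at 0.75 without WT 2 and null 18 and -0.42 without null 7. Wnt6 did not pass the filter on low counts.

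**Figure D3:**
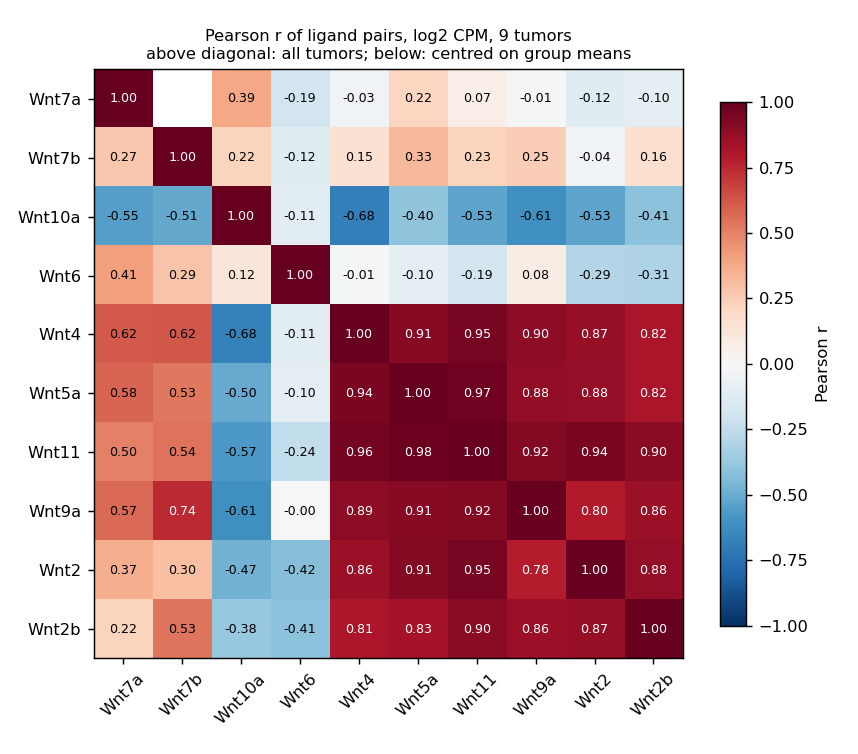
Pearson's r between ligands in log2 CPM over 9 tumors, above the diagonal over all tumors and below it after centring each gene on its group mean (red positive, blue negative; the pooled cell of Wnt7a and Wnt7b is left blank). The 6 ligands at the lower right have r from 0.80 to 0.97 with each other above the diagonal, and from 0.78 to 0.98 below it.

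Each of the 9 ligands tested was set against marker lists of epithelium, fibroblasts and macrophages, and 2 of these 27 relations passed after adjustment. Wnt4 followed the fibroblast list (15 collagen, matrix and surface genes), with r = 0.91 (exact permutation p = 0.00293, adjusted p = 0.0396) and rho = 0.75 (exact permutation p = 0.0255, adjusted p = 0.332), and r = 0.66 without WT 2 and null 7. Wnt10a ran against the macrophage and monocyte list, with r = -0.89 (exact permutation p = 0.00132, adjusted p = 0.0356) and rho = -0.88 (exact permutation p = 0.00307, adjusted p = 0.0830), and r = -0.70 without WT 9 and null 7. By rank no relation passed adjustment. Both calls were lost without null 7, where r was 0.70 for Wnt4 and -0.81 for Wnt10a (exact permutation adjusted p = 0.403 and 0.307).

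Over all tumors the 6 ligands that varied together had r from 0.75 to 0.91 with the fibroblast list. Centred on group means r was 0.84 to 0.97, where 6 of 6 passed (permutation adjusted p from 0.00372 to 0.0428). Such p-values are approximate, because values centred within groups are not freely exchangeable between groups. Centring also leaves WT 3 and null 7 the lowest of their groups. Without WT 3 and null 7, r of the 6 ligands with the fibroblast list ran from 0.18 to 0.76. The relation was not to fibroblast markers alone. With the macrophage and monocyte list the 6 had r from 0.46 to 0.76 over all tumors. Centred on group means it was 0.48 to 0.85, where Wnt4 and Wnt9a passed (approximate permutation adjusted p = 0.0152 and 0.0471). Without WT 3 and null 7 it ran from -0.17 (Wnt2b) to 0.78 (Wnt4). Wnt7a and Wnt7b separate the groups, so no pooled r is given for them. Centred on group means, r with the fibroblast list was 0.60 for Wnt7a and 0.65 for Wnt7b (approximate permutation adjusted p = 0.116 and 0.0821). With epithelium it was 0.54 and 0.47 (approximate permutation adjusted p = 0.198 and 0.256). With the macrophage and monocyte list it was 0.66 and 0.75 (approximate permutation adjusted p = 0.104 and 0.0634). In null 7, where the fibroblast list was lowest, Wnt7a was at 148 CPM and Wnt7b at 226 CPM. Both values were the lowest of the tumors labelled null and above every tumor labelled WT.

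**Figure D4:**
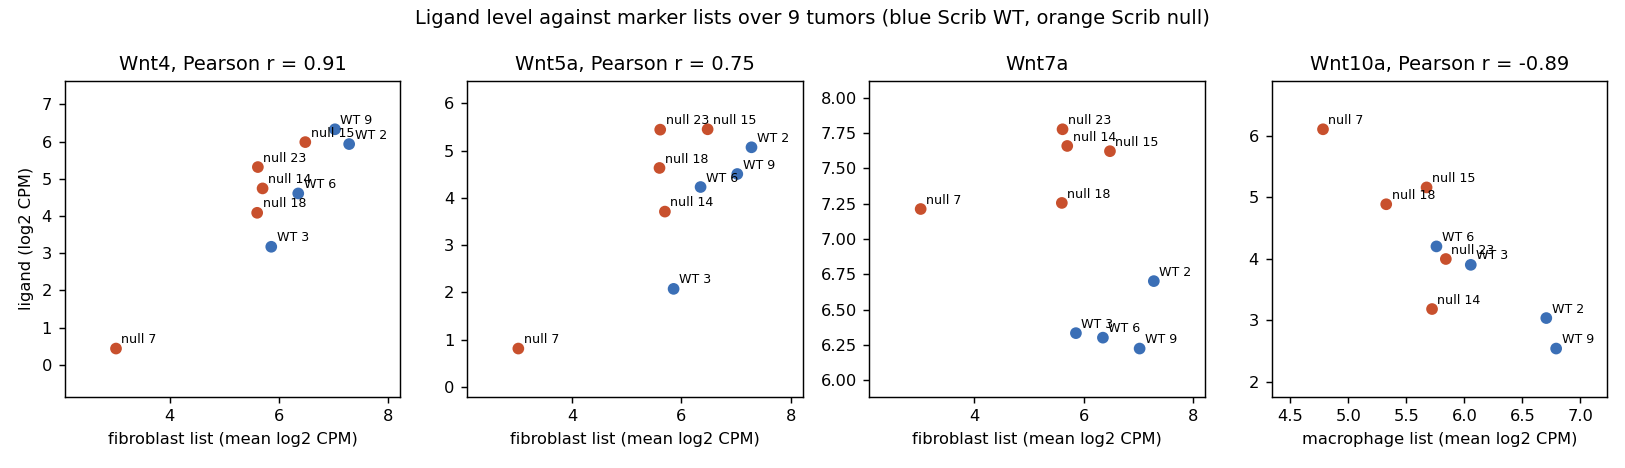
Ligand level (log2 CPM) against the mean log2 CPM of the fibroblast list for Wnt4, Wnt5a and Wnt7a and of the macrophage and monocyte list for Wnt10a, with 1 point per tumor (blue Scrib WT, orange Scrib null). Wnt4 follows the fibroblast list with null 7 at the far end (r = 0.91), Wnt7a is higher in every tumor labelled null, while the groups share fibroblast levels only between 5.86 and 6.48, and Wnt10a falls with macrophage level (r = -0.89).

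Promoters are printed for Wnt7a, the steadiest of the ligands and high in the tumors labelled null, and for 3 of the ligands that varied together, Wnt4, Wnt11 and Wnt2, so that the 2 kinds can be compared. Each is the 250 bases before the RefSeq start on GRCm38.p6, read 5′ to 3′ on the gene's strand: chr6:91411354-91411603 (minus) for Wnt7a, chr4:137277385-137277634 (plus) for Wnt4, chr7:98834862-98835111 (plus) for Wnt11 and chr6:18030446-18030695 (minus) for Wnt2. Capitals mark matches, on either strand, to the GC box GGGCGG, the TCF/LEF core CTTTGA, the TEAD core CATTCC, the AP-1 site TGANTCA, the TATA box TATAAA and CCAAT.
Wnt7a: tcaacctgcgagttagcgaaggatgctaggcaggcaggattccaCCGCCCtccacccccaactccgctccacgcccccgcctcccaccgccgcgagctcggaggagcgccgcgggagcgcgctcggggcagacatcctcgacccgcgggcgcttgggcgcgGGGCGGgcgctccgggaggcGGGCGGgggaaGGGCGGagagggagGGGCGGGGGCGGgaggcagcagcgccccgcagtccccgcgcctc
Wnt4: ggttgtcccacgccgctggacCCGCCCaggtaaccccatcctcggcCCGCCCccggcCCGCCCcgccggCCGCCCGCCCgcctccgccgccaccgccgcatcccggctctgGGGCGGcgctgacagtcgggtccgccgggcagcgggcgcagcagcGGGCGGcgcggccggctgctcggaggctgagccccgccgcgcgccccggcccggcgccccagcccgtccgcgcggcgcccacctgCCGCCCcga
Wnt11: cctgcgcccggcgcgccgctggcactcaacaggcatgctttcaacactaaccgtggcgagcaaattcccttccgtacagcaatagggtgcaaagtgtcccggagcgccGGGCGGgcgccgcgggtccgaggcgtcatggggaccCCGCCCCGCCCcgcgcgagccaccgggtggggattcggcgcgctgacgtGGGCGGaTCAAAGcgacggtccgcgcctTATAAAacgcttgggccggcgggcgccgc
Wnt2: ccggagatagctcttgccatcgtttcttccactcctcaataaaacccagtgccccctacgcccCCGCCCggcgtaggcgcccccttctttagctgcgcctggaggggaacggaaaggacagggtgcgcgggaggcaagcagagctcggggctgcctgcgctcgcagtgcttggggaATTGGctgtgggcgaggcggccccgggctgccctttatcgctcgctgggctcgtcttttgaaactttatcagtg
GC boxes were in all 4, with 6 matches in Wnt7a, 8 in Wnt4, 4 in Wnt11 and 1 in Wnt2, where neighbouring matches may share bases. In the same 250-base window 32.7% of 32817 RefSeq promoters hold one. The TCF/LEF core was found in Wnt11, on the other strand 50 bases before the start and 1 base after a GC box, and is in 13.8% of promoters. Wnt11 also held the TATA box, at 29 bases before the start (12.4% of promoters), and Wnt2 a CCAAT match on the other strand (33.8%). No TEAD or AP-1 match was in these windows (12.6% and 6.75% of promoters). GC content was 77.6% in Wnt7a, 85.2% in Wnt4, 70.8% in Wnt11 and 63.6% in Wnt2, against a median of 52.4% over all promoters. Matches are a description of letters and not of binding. By the GENCODE coordinates given above, the windows of Wnt7a, Wnt4 and Wnt2 reach into the gene. Some matches of Wnt4 and the CCAAT match of Wnt2 therefore lie past the GENCODE start. A second RefSeq start of Wnt11 (chr7:98838595-98838844, plus) had none of the motifs searched and 56.8% GC, and is not printed. RefSeq promoters were matched by symbol for 7 of the 10 ligands, all 7 with a GC box and 1 with a TCF/LEF core.

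The genes whose pattern over the 9 tumors was most like each ligand, by Pearson's r in log2 CPM among 12171 genes, were different ones for each ligand. Wnt7a and Wnt7b separate the groups, so genes that do the same rank high for them, and r centred on group means is given for these 2. For Wnt7a the first genes were Pskh1 (centred r = 0.82), Tlk2 (0.40) and Copg1 (0.57), and for Wnt7b Pitpnc1 (centred r = 0.93), Arhgap8 (0.92) and Cbfa2t2 (0.92). For Wnt10a they were Noa1 (r = 0.95 over all tumors, as for the ligands that follow), Bri3bp (0.95) and Pigw (0.93). For Wnt5a the first was Axin2 (0.98) and the third Nkd1 (0.97), both feedback genes that beta-catenin switches on, with Slc9a3r2 (0.98) between them. For Wnt11 they were Aldh1a2 (0.99), which makes retinoic acid, Plcl1 (0.99) and Tnfrsf19 (0.98), another gene of the beta-catenin target list. For Wnt9a they were the collagen gene Col6a1 (0.98), Map1a (0.98) and the matrix protease gene Mmp2 (0.98), for Wnt4 Lrrn2 (0.98), Clec11a (0.98) and Ccdc80 (0.98), for Wnt2 Hs6st2 (0.97), Lgi2 (0.97) and Otop3 (0.97), and for Wnt2b Thbd (0.95), Slc39a8 (0.94) and Has2 (0.94). Without WT 3 and null 7, r was 0.84 for Wnt5a with Axin2 and 0.86 with Nkd1, 0.73 for Wnt11 with Aldh1a2, and from 0.61 (Wnt2b with Has2) to 0.94 (Wnt9a with Col6a1) over the 18 pairs of the 6 ligands that varied together. These are the top of a ranking of many genes over few tumors and carry no test.

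Axin2, the gene most often read as a sign of beta-catenin activity, had 27.5, 1.11, 10.8 and 22.3 CPM in tumors WT 2, WT 3, WT 6 and WT 9 and 0.252, 3.68, 20.7, 12.4 and 22.5 CPM in tumors null 7, null 14, null 15, null 18 and null 23. It was lowest in null 7 and WT 3, the 2 tumors lowest in Wnt5a, Wnt11, Wnt4, Wnt2, Wnt9a and Wnt2b alike, and the groups overlapped. A log2 fold change of -0.37 (SE 0.99, edgeR adjusted p = 0.860) stood beside the higher Wnt7a and Wnt7b of the tumors labelled null.

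The other genes of the pathway were taken from 8 lists of 94 genes, of which 77 passed the filter. None passed edgeR (0 higher, 0 lower) or DESeq2 at an adjusted p under 0.05, though DESeq2 gave no p-value for Myc. At an unadjusted edgeR p under 0.05 there were 9 higher and 2 lower, where 7.64% of all genes were higher and 10% lower. All 7 genes of ligand lipidation and secretion had a negative log2 fold change, with a median of -0.34, and none reached an unadjusted p under 0.05. With non-epithelial level as a covariate 5 were negative and 2 positive, with a median of -0.26. For Porcn the group means, WT then null, were 194 ± 36.2 CPM (SD, n = 4) and 152 ± 36.2 CPM (SD, n = 5; edgeR adjusted p = 0.430). For Wls they were 109 ± 65.2 and 58.2 ± 43.7 CPM (edgeR adjusted p = 0.519). Null 7 held only 4.23 CPM of Wls, and Tmed5, a cargo receptor, had a log2 fold change of -0.34 (SE 0.23).

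Among the receptors, 7 of 10 Frizzled genes and 7 of 11 co-receptors and alternative receptors had a positive log2 fold change; with upper-quartile scaling, where the median of all genes was -0.13, it was 4 of 10 and 7 of 11. With non-epithelial level as a covariate it was 9 of 10 (median 0.48) and 9 of 11 (median 0.70), and 5 of 6 R-spondin and receptor genes (median 0.96). Lrp6 had 65.0 ± 28.7 and 131 ± 48.7 CPM (log2 fold change 1.01, SE 0.35, edgeR adjusted p = 0.226). Fzd5 had a log2 fold change of 0.04 (SE 0.31), Fzd6 of 0.40 (SE 0.25), Fzd10 of 1.20 (SE 0.86) at low levels of 0.780 and 1.81 mean CPM, and Ror2 of 0.06 (SE 0.51). Reck and Adgra2, the partners through which Wnt7a and Wnt7b act on brain vessels, had log2 fold changes of -0.76 (SE 0.74) and 0.32 (SE 0.44), and Mcam, a Wnt5a receptor that also marks vessels and pericytes, of -0.87 (SE 0.38). Of 6 R-spondin and receptor genes tested, Lgr6 had 27.6 ± 17.2 and 74.6 ± 37.8 CPM (log2 fold change 1.43, SE 0.53, edgeR adjusted p = 0.233), while the ligases that remove Frizzled receptors had 0.48 (SE 0.71, Rnf43) and 0.80 (SE 0.45, Znrf3).

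The list of antagonists, most of them secreted, and the intracellular relay differed in sign. All 8 genes of the antagonist list tested had a negative log2 fold change, with a median of -0.86. All 8 were also negative under RLE and upper-quartile scaling and without WT 3 and null 7. With non-epithelial level as a covariate 6 of the 8 were positive, with a median of 0.34. Dkk3 had 63.6 ± 37.7 and 27.3 ± 8.66 CPM (log2 fold change -1.22, SE 0.42, edgeR adjusted p = 0.225), Sfrp1, which binds Wnt ligands, 148 ± 103 and 55.4 ± 31.2 CPM (edgeR adjusted p = 0.287), and Notum, which removes the lipid, had a log2 fold change of -0.57 (SE 1.03). Sfrp1 was at 6.55 CPM in null 7. Of 18 relay and nuclear genes 17 had a positive log2 fold change, with a median of 0.50 (16 of 18 and 0.57 with the covariate). At an unadjusted edgeR p under 0.05, 5 of the 18 were higher and 0 lower, where 7.64% of all genes were higher and 10% lower. That list mixes genes that carry the signal with genes that restrain it, such as Axin1, Apc, Gsk3a and Gsk3b. Its signs therefore give no direction of signalling. Groups did not overlap for 3 relay genes, Axin1 and Pygo2 (higher in the tumors labelled null) and Ctnnbip1 (lower), the only 3 such genes among the 77 of the pathway lists, where 6.91% of all genes have groups that do not overlap. Of these Axin1 and Ctnnbip1 were named after their values were seen. The beta-catenin partners Pygo2 and Bcl9 had log2 fold changes of 0.59 (SE 0.20) and 0.89 (SE 0.31; edgeR adjusted p = 0.225 and 0.226). Beta-catenin target genes were split, 9 above and 9 below 0. With non-epithelial level as a covariate, which did not overlap between the groups, 15 of 18 were above 0, with a median of 1.06. Ccnd1 was at 368 ± 198 and 775 ± 162 CPM (edgeR adjusted p = 0.227) and Myc at 120 ± 42.9 and 345 ± 384 CPM (edgeR adjusted p = 0.250). Myc was at 1031 CPM in null 7 and at 156 to 201 CPM in the other tumors labelled null.

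**Figure D5:**
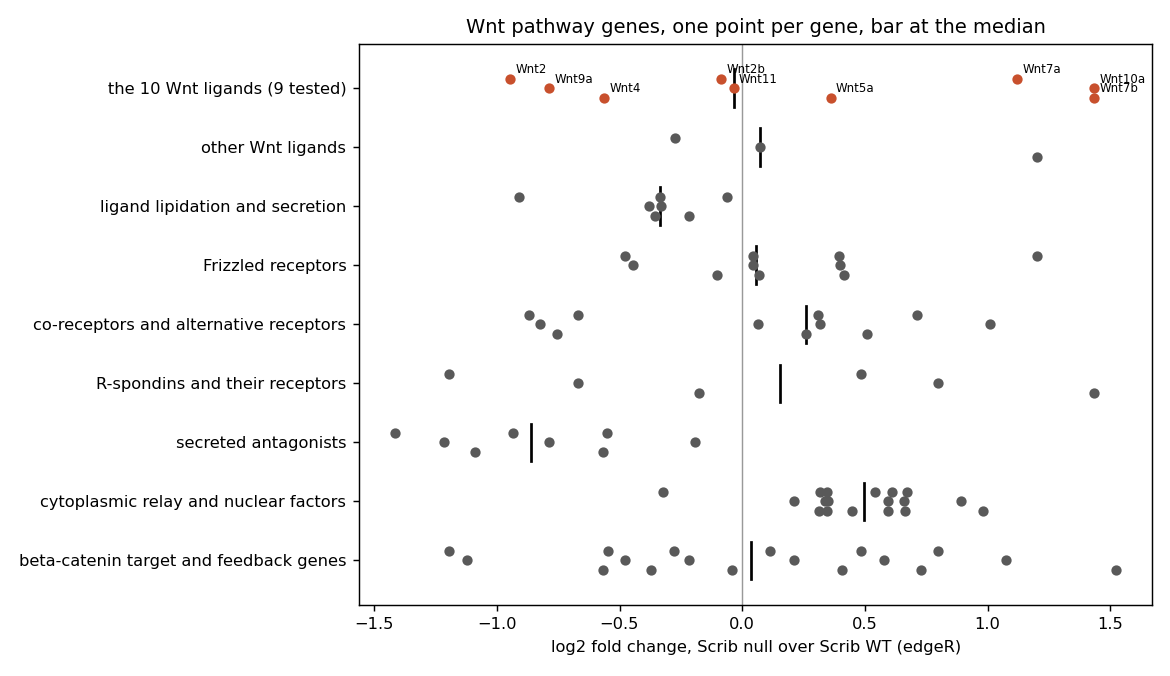
Log2 fold change, Scrib null over Scrib WT, of 9 Wnt ligands (orange, named) and of the genes of 8 pathway lists (grey), with 1 point per gene and a bar at each median. Wnt7a, Wnt7b and Wnt10a lie above 1, and all 8 genes of the antagonist list lie below 0. With non-epithelial level as a covariate 2 of these 8 were below 0. Of 18 relay and nuclear genes, activators and inhibitors among them, 17 lie above 0.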

How the data were processed

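RNA of 9 whole tumors was measured by mRNA sequencing, 4 labelled Scrib WT and 5 labelled Scrib null. The deposited table held estimated counts per Ensembl gene that the authors had not normalized, made with Salmon 1.4.0 and DESeq 2 named among the tools and GRCm38 and mm10 among the builds, per the submitters' processing notes. The annotation release and the use of strand in counting are not given in the sources used here. Of 54453 rows, 54200 took a symbol from GENCODE M21 on GRCm38, which also gave coordinates and exon lengths.

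Estimated counts were rounded, filtered to 16169 genes with edgeR's filterByExpr (count of at least 10, total of at least 15), and tested with edgeR 4.0.16's quasi-likelihood test after TMM scaling under R 4.3.3. A gene was called at a Benjamini-Hochberg adjusted p under 0.05. Standard errors are the log2 fold change's size over the square root of F. CPM is over TMM-scaled libraries, and log2 CPM used a prior count of 2. TPM divides estimated counts by the union of exons. The level of a marker list is the mean log2 CPM of its genes. Relations over tumors were tested over all pairings with two-sided exact permutation tests, and group levels over all splits into 4 and 5, where the smallest p is 0.00794. For values centred on group means the permutation p is approximate.

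The ligands and lists were chosen with earlier results of these data known. Named were all 10 ligands, the other Wnt genes that passed the filter, 2 genes of smallest p per pathway list, 11 pathway genes whatever their values, and the 3 genes most like each ligand. Alternatives were other scalings, filters and lengths, DESeq2 1.42.0, limma-voom (limma 3.58.1), sex (read from Xist and Y-linked genes; WT 3, null 7 and null 18 were male) or non-epithelial level as covariate, and tumors left out. The genes most like each ligand were also compared after centring on group means and without WT 3 and null 7, which was chosen after seeing the data. The edgeR test and the permutation test of a correlation were tested on simulated data. The common biological coefficient of variation was 0.494, so variation among tumors limited precision for all but low genes such as Wnt6, with 2 to 54 counts.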

Additional observations from a re-analysis of the deposited data

Results flagged for a closer look

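Of 94 groups of tumors screened, 12 held a tumor far from the others of its group. The limits used flag about 5% by chance for independent groups of normally spread values. These groups share the same 9 tumors, so the 12 are a description and not an excess over that rate. Among the ligands this was Wnt6, with 5.15 CPM in WT 2, where the rest of its group had 0.269 to 0.429 CPM. Of the other Wnt genes, Wnt16 was at 4.20 CPM in WT 9 (others labelled WT 0.0769 to 0.286) and Wnt10b at 7.42 CPM in null 15 (others labelled null 0.315 to 1.51). Myc was at 1031 CPM in null 7 (156 to 201 in the others), Fzd5 at 67.8 CPM in WT 9 (22.9 to 29.4) and Notum at 8.48 CPM in WT 2 (0.0858 to 0.999). Scrib was at 102 CPM in null 7 (36.9 to 55.4).

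In mean log2 CPM of the marker lists, null 7 lay below the other tumors labelled null for fibroblasts (3.02, others 5.60 to 6.48), endothelium (2.25, others 3.97 to 4.60) and pericytes (1.70, others 3.58 to 4.30). WT 6 had the lowest epithelium level of the tumors labelled WT (7.69, others 8.07 to 8.10) and the highest acinar level (4.90, others -1.54 to -0.74).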

How the results depend on the processing

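The log2 fold changes of Wnt7a (1.03 to 1.31), Wnt7b (1.20 to 2.02), Wnt10a (0.345 to 1.74) and Wnt5a (0.06 to 2.03) kept their sign under all 18 alternatives. Wnt7a and Wnt7b passed the threshold under DESeq2 alone. With non-epithelial level as covariate, which did not overlap between the groups, the sign turned for Wnt11 (1.54), Wnt2 (0.45), Wnt2b (0.98), Wnt4 (1.68) and Wnt9a (1.35). It also turned for Wnt11 with no filter (0.014) and with sex as covariate (0.30), and for Wnt2b with sex (0.034) and without both WT 3 and null 7 (0.026). With each tumor left out in turn, Wnt11 ran from -0.31 to 0.29, Wnt2b from -0.37 to 0.21 and Wnt9a from -1.09 to 0.27. Wnt2b has no value under a filter of at least 1 CPM in 4 tumors, and Wnt6 has a fold change under 6 settings only.

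Against 2 genes called of all tested, there were 7 with no filter, 642 with DESeq2 (223 higher, 419 lower), 6 with limma-voom, 1 with sex, 0 with non-epithelial level, 0 without both WT 3 and null 7, and 0 to 1 with each tumor left out. No pathway gene was called under any of the 18, though DESeq2 gave no p-value for Myc. Of 27 ligand and marker relations, 1 passed with RLE scaling and 9 centred on group means, where p is approximate, against 2. The number was 0 without both tumors and 0 to 5 with each tumor left out. Of 45 ligand pairs, 0 passed without both tumors and 0 to 15 with each left out, against 14, and r of Wnt5a and Wnt2b was -0.014 without both. With 7 or 8 tumors left, fewer pairings are possible; the cause of the other changes was not tested. The order of ligands was the same with the longest transcript as length. Counting limits Wnt6, Wnt2b and the values of null 7, with 5 counts for Wnt2 and 6 for Wnt9a. No paired analysis was possible because the 2 groups share no replicate number.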
